A study of Mus musculus with 3 samples.

Results

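Cells annotated as dividing fibroblasts (DivFB) were compared with cells annotated as the myofibroblast type MyoFB-IMR, called resting here, within 1 sorted library of neonatal mouse lung mesenchyme. The dividing cells were the 190 cells of the GFP-high tdT-negative gate that the authors' deposited annotation names DivFB-G2M (91 cells), DivFB-S (28 cells) or DivFB-S/G2M (71 cells). The resting cells were the 1032 cells of the same gate named MyoFB-IMR. Together they make up 1222 of the 3347 cells of that library and of the 6142 cells in the series.

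All cells came from Fgf18CreERT2/+; ROSATDTomato/+; PdgfrαEGFP/+ pups that received tamoxifen on postnatal days 2 to 5, and lungs were taken on day 7. The GFP reporter marks cells that transcribe Pdgfra, and tdTomato marks cells in which the inducible Cre under Fgf18 was active during those days, together with their descendants. Live cells were sorted into 3 gates of GFP and tdTomato, and each gate gave 1 library. No test between groups was made, and intervals cover counting error only. The GFP-high tdT-high library, which holds 42 dividing cells and 467 MyoFB-IMR cells, gives the same contrast in other cells, which carry labels of the same annotation. The sources used here do not say whether several pups were pooled or whether the gates came from the same pups.

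Lung myofibroblasts are PDGFRα-positive cells that lie at the tips of the growing septa during alveolar formation, where they make elastin and carry smooth muscle actin. Platelet-derived growth factor from the epithelium keeps their precursors in the septa, and most of these cells are lost once septation ends. A cell that divides copies its DNA in S phase, separates the copies in mitosis and re-enters the cycle through D-type cyclins, which release E2F factors from RB proteins. E2F sites drive many S phase genes, while genes of G2 and mitosis are often controlled through a cell cycle homology region (CHR) near the start site together with CCAAT boxes bound by NF-Y.

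Dividing cells held a median of 23201 UMIs and 5859.5 genes per cell, against 19460.5 UMIs and 5290.5 genes in resting cells. The groups summed to 4608235 UMIs in dividing cells and 20382777 UMIs in resting cells. Median mitochondrial content was 2.53% in dividing cells and 2.80% in resting cells, and ribosomal protein genes took 10.1% of UMIs in dividing cells and 10.2% in resting cells. The 3 lists of cell cycle genes took 4.26% of UMIs in dividing cells and 0.658% in resting cells. Median depth was 19179 UMIs in DivFB-G2M cells, 24123 in DivFB-S cells and 30940 in DivFB-S/G2M cells. This library shared 3 cell barcodes with the GFP-low tdT-negative library and 1 with the GFP-high tdT-high library.

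Cell cycle genes followed the labels. Mki67, a mitotic chromosome coat protein, had 614 counts per 1000000 UMIs (CPM) in dividing cells and 22.9 CPM in resting cells, a ratio of 26.9 (95% interval 24.3 to 29.7). Top2a, the topoisomerase that untangles sister chromatids, had 658 CPM in dividing cells and 6.18 CPM in resting cells. After every cell was thinned to 5000 UMIs, Mki67 was detected in 80.5% of dividing cells (74.2 to 85.9, exact Clopper-Pearson) and in 9.88% of resting cells (8.13 to 11.9). In adventitial fibroblasts (AdvFB) of the same library, another label apart from DivFB, the thinned share was 0.915% (0.189 to 2.65). The cells named MyoFB-IMR thus carried Mki67 above the AdvFB level. AdvFB is a comparison by label and not a group known to lack Mki67. Without thinning the Mki67 shares were 94.7% in dividing cells, 27.1% in resting cells and 2.74% in AdvFB. Resting therefore stands for the label and not for a complete absence of cycling transcripts.

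Of the 76 S phase and DNA replication genes that averaged at least 10 CPM over the 2 groups, which is the level from which a gene was counted, 72 were at least 1.5-fold higher in dividing cells, with a median log2 ratio of 2.21. Of 164 counted genes of G2 and mitosis 161 were at least 1.5-fold higher, with a median of 4.24. Of 32 counted replication-dependent histone genes 31 were at least 1.5-fold higher, with a median of 3.58. These lists restate how the cells were labelled and are given as a description. Hmmr, a spindle protein, had 245 CPM in dividing cells and 0.785 CPM in resting cells, a ratio of 312 (191 to 548). Cenpf, a kinetochore protein, had 679 CPM in dividing cells and 4.17 CPM in resting cells. Clspn, the claspin checkpoint adaptor at replication forks, had 71.8 CPM in dividing cells and 1.72 CPM in resting cells. E2f8, an E2F repressor, had 133 UMIs in dividing cells and 0 UMIs in resting cells, which with the limit of 3 counts over the resting group makes it at least 196-fold higher in dividing cells.

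The promoters of the 2 mitotic genes and the S phase gene just described are shown because their lists moved together, and they carry the words named above. Each is the 250 bases before and the 50 after the RefSeq start on GRCm38.p6, written 5′ to 3′ on the gene's strand. Capitals mark the CHR word TTTGAA and the word CCAAT, on either strand, in the first 2 sequences, and an E2F word in the third. The E2F words searched were TTTCCCGC, TTTCGCGC, TTTGCCGC and TTTGGCGC on either strand.
Hmmr, chr11:40733388-40733687, minus strand: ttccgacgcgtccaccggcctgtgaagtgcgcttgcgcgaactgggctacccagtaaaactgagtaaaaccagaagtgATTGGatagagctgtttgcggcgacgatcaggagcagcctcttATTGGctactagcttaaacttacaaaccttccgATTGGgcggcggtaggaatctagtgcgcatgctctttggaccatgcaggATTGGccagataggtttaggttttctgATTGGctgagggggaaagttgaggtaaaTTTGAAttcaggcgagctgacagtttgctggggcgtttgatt
Cenpf, chr1:189688037-189688336, minus strand: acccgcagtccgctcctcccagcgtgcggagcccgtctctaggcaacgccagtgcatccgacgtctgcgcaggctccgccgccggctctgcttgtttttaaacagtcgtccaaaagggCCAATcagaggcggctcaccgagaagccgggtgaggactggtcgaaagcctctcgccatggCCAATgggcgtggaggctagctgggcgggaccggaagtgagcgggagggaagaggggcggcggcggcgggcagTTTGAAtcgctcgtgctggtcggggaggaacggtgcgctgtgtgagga
Clspn, chr4:126556730-126557029, plus strand: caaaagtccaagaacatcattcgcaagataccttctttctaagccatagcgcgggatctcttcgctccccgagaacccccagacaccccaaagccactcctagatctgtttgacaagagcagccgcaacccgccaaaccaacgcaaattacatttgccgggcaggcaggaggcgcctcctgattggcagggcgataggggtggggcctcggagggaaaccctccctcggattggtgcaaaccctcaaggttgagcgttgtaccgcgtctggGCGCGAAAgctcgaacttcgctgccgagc
The Hmmr window held 1 CHR word and 5 CCAAT words, all 5 on the opposite strand as ATTGG. The Cenpf window held 1 CHR word and 2 CCAAT words. The Clspn window held 1 E2F word on the opposite strand, and also 2 CCAAT words, which are left in lower case. A promoter was found for 136 of the 164 counted mitotic genes, and 51.5% of these held a CHR word, against 18.1% of all 27025 promoters of this length. Both a CHR and a CCAAT word stood in 42.6% of the mitotic promoters and 7.12% of all promoters. An E2F word stood in 32.8% of the 58 S phase promoters found, in 9.56% of the mitotic ones and in 2.32% of all promoters. The CCAAT word by itself did not set these 2 lists apart from each other, with 69.1% of mitotic and 67.2% of S phase promoters. Both shares were above the 37.9% of all promoters. A CHR word stood in 17.2% of S phase promoters. Of 20 promoters of the myofibroblast gene list described later, 2 held a CHR word and 0 held an E2F word. A match of letters is a description of these windows and not a bound site.

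The 3 dividing labels differed in which of these genes they carried. The S phase list had a median log2 ratio over resting cells of 0.45 in DivFB-G2M, 2.96 in DivFB-S and 2.57 in DivFB-S/G2M. The mitotic list had medians of 3.34 in DivFB-G2M, 2.06 in DivFB-S and 4.61 in DivFB-S/G2M. Histone genes had medians of 0.74 in DivFB-G2M, 0.62 in DivFB-S and 4.26 in DivFB-S/G2M, so their high pooled value came mainly with the 71 DivFB-S/G2M cells. Pcna, the sliding clamp of replication, had 35.7 CPM in DivFB-G2M cells, 255 CPM in DivFB-S cells and 131 CPM in DivFB-S/G2M cells, against 24.7 CPM in resting cells.

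The D-type cyclins were lower in dividing cells, but not at every phase. Ccnd2 had 94.9 CPM in DivFB-G2M cells, 313 CPM in DivFB-S cells and 38.1 CPM in DivFB-S/G2M cells, against 235 CPM in resting cells. Ccnd1 had 14.3 CPM in DivFB-G2M cells, 173 CPM in DivFB-S cells and 16.2 CPM in DivFB-S/G2M cells, against 58.4 CPM in resting cells. Both cyclins were thus above the resting level in DivFB-S cells and below it in the other 2 labels. Ccnd3 was below the resting level in all 3, with 211 CPM over all dividing cells and 428 CPM in resting cells, which is 2.03-fold lower (1.90 to 2.17). Several inhibitors of cyclin-dependent kinases were higher in dividing cells: Cdkn2d, an INK4 inhibitor of CDK4 and CDK6, had 92.7 CPM in dividing cells and 18.0 CPM in resting cells, and Cdkn1a, the p21 inhibitor, had 30.6 CPM in dividing cells and 9.62 CPM in resting cells. Cdkn2d reached 169 CPM in DivFB-S/G2M cells, while DivFB-S cells had 17.5 CPM. Txnip, a thioredoxin inhibitor that restrains glucose uptake, had 100.3 CPM in dividing cells and 193 CPM in resting cells.

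**Figure D1:**
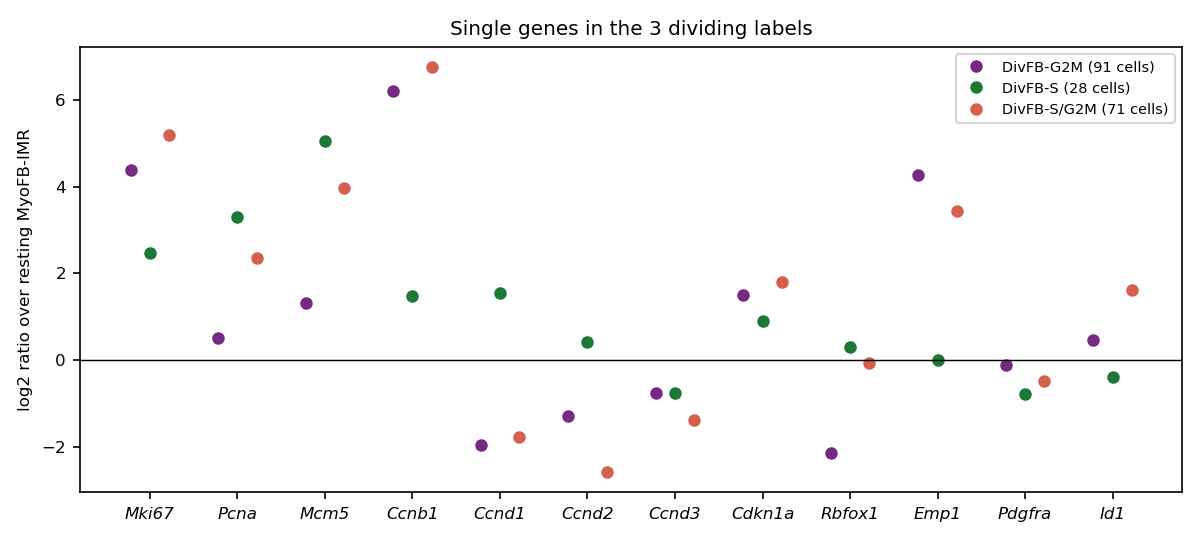
Log2 ratio of CPM (vertical axis) over resting MyoFB-IMR cells for 12 genes, in DivFB-G2M, DivFB-S and DivFB-S/G2M cells; each point is 1 sum over the cells of a label. Ccnd1 and Ccnd2 lie above 0 only in DivFB-S cells among these 3 labels, and Rbfox1 is far below 0 in DivFB-G2M cells only.

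Outside the cell cycle genes each dividing cell was set against the resting types of its library, using 2809 genes that differ between those types. Of the 190 dividing cells 64.7% (57.5 to 71.5) were nearest to MyoFB-IMR, while 63 cells were nearest to MyoFB-Int, 3 to MyoFB-Ter, 1 to AdvFB and 0 to a matrix fibroblast type. MyoFB-Int and MyoFB-Ter are the other myofibroblast labels of the authors' annotation. The same rule, with the cell itself left out, put 956 of the 1032 MyoFB-IMR cells back in their own type and 75 in MyoFB-Int. It put 860 of 1324 MyoFB-Int cells back, so the border between these types is not sharp. Nearest to MyoFB-IMR were 57 of 91 DivFB-G2M cells, 22 of 28 DivFB-S cells and 44 of 71 DivFB-S/G2M cells. In the GFP-high tdT-high library 35 of 42 dividing cells were nearest to MyoFB-IMR and 7 to MyoFB-Int.

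**Figure D2:**
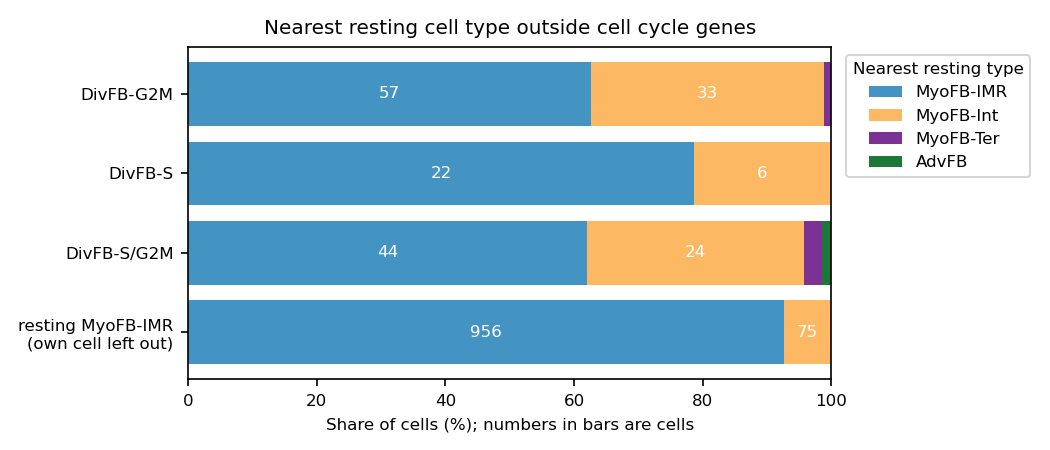
Share of cells (horizontal axis, percent) by nearest resting type for the 3 dividing labels and for resting MyoFB-IMR cells; numbers in the bars are cells. Most dividing cells of every label fall to MyoFB-IMR, with 33, 6 and 24 cells nearest to MyoFB-Int in DivFB-G2M, DivFB-S and DivFB-S/G2M, against 75 of 1032 resting cells.

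By this measure the pooled dividing group mixes both myofibroblast states, while the resting group is mainly one of them. Values for all dividing cells are therefore followed, for the main gene lists and for many single genes, by those of the cells nearest to MyoFB-IMR over MyoFB-IMR and of the 63 nearest to MyoFB-Int over all MyoFB-Int cells. These subsets were drawn with the same counts, by nearest type, while the resting cells keep the authors' labels, so their values are not independent of the genes they are read for. Outside the cell cycle lists, 9226 genes were counted. Of these 8.87% (818 genes) were at least 1.5-fold higher and 8.09% (746 genes) at least 1.5-fold lower in dividing cells, with a median log2 ratio of -0.01. Scaling by TMM factors gave 995 higher and 578 lower, and scaling by DESeq2 size factors gave 1046 higher and 562 lower. For the cells nearest to MyoFB-IMR the shares were 8.54% higher and 7.59% lower, and for those nearest to MyoFB-Int over MyoFB-Int 10.4% higher and 9.49% lower. For single labels over resting cells they were 11.0% higher and 9.83% lower in DivFB-G2M, 12.2% higher and 11.9% lower in DivFB-S, and 11.6% higher and 13.5% lower in DivFB-S/G2M. In the GFP-high tdT-high library they were 11.0% higher and 10.3% lower.

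The highest ratios outside the lists still belonged largely to genes with roles in division. E2f7, the partner of E2f8, had 51.6 CPM in dividing cells and 0.294 CPM in resting cells. Cdkn3, a phosphatase of CDKs, had 76.0 CPM in dividing cells and 2.16 CPM in resting cells. Polq (DNA repair), Kpna2 (nuclear import), Zwilch and Cenpq (kinetochore), Dnajc9 (a histone chaperone) and Fam111a (a protease at replication forks) were between 7.23-fold and 24.6-fold higher. Emp1, an epithelial membrane protein of the PMP22 family, had 141 CPM in dividing cells and 10.2 CPM in resting cells, 13.9-fold higher (11.9 to 16.4). Emp1 had 214 CPM in DivFB-G2M cells, 10.2 CPM in DivFB-S cells and 121 CPM in DivFB-S/G2M cells, so it was at the resting level in the S phase label. It was also higher in the cells nearest to MyoFB-IMR, at a log2 ratio of 3.41, and in tdT-high dividing cells, with 97.9 CPM there and 17.1 CPM in tdT-high resting cells. Ulbp1, a ligand of the NKG2D receptor of natural killer cells, had 67.9 CPM in dividing cells and 3.78 CPM in resting cells, and H19, an imprinted non-coding RNA, had 22.1 CPM in dividing cells and 3.63 CPM in resting cells. H19 was found in 15.8% of dividing cells and 3.39% of resting cells.

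Genes of ribosome building and nucleotide synthesis, which MYC often drives, were higher on balance. Of 31 counted, 15 were at least 1.5-fold higher and 0 lower, with a median log2 ratio of 0.50. The count was again 15 of 31 in the cells nearest to MyoFB-IMR, 12 of 28 with 1 lower in those nearest to MyoFB-Int, and 16 of 31 in the tdT-high library. Ncl, the nucleolar protein nucleolin, had 417 CPM in dividing cells and 301 CPM in resting cells. Psat1, an enzyme of serine synthesis, had 27.3 CPM in dividing cells and 9.67 CPM in resting cells, and Mthfd2, a mitochondrial folate enzyme, had 22.1 CPM in dividing cells and 9.37 CPM in resting cells.

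**Figure D3:**
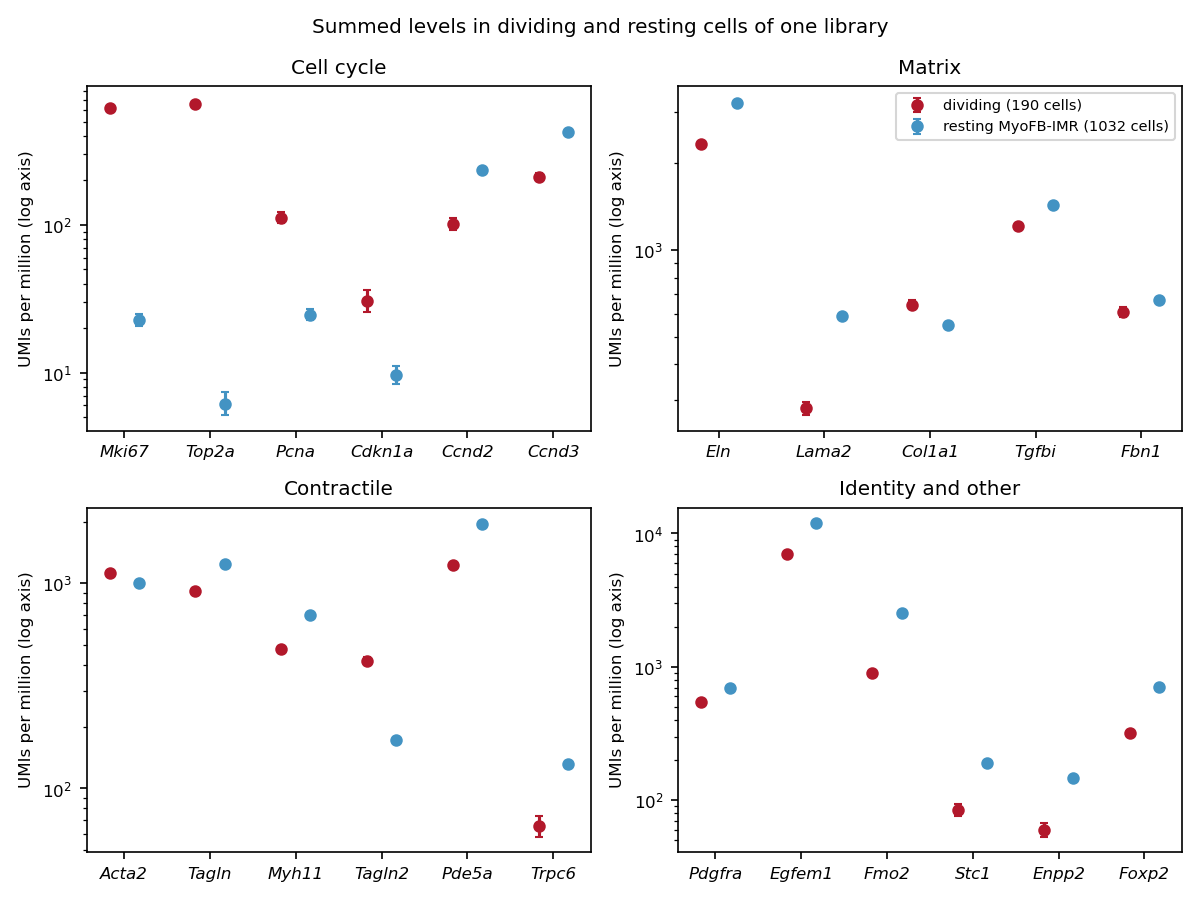
Summed level (vertical axes, CPM, log scale) of genes by group, with exact Poisson 95% intervals, for 190 dividing cells on the left of each pair and 1032 resting MyoFB-IMR cells on the right. Eln, Lama2, Egfem1, Fmo2 and Foxp2 sit lower in dividing cells, Tagln2 sits higher, and Acta2 and Col1a1 lie close together.

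Myofibroblast genes were lower on balance in dividing cells. Of 25 counted members, 10 were at least 1.5-fold lower and 2 higher, with a median log2 ratio of -0.36. Over the cells nearest to MyoFB-IMR 8 were lower and 1 higher (median -0.37), over the 63 nearest to MyoFB-Int 10 were lower and 0 higher (median -0.45), and in the tdT-high library 6 were lower and 0 higher (median -0.19). Egfem1, an EGF-like matrix protein and among the most abundant transcripts of these cells, had 6973 CPM in dividing cells and 11896 CPM in resting cells, 1.71-fold lower (1.69 to 1.73). Enpp2, the enzyme autotaxin that makes lysophosphatidic acid, had 60.1 CPM in dividing cells and 146 CPM in resting cells, with log2 ratios of -0.99 near MyoFB-IMR and -1.22 near MyoFB-Int. Stc1, the secreted stanniocalcin, had 84.2 CPM in dividing cells and 190 CPM in resting cells, but among the cells nearest to MyoFB-Int it was not lower than in MyoFB-Int, at a log2 ratio of 0.29. Rbfox1, a splicing factor encoded by a gene of 1526.17 kb, had 579 CPM in DivFB-G2M cells, 3192 CPM in DivFB-S cells and 2448 CPM in DivFB-S/G2M cells, against 2587 CPM in resting cells, so it was below the resting level mainly in DivFB-G2M cells.

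Pdgfra, the receptor whose locus carries the reporter, was lower in dividing cells by less than 1.5-fold. Both groups came from the same GFP-high gate, so the sort on the reporter limited how far they could differ in it. Pdgfra had 543 CPM in dividing cells and 699 CPM in resting cells, 1.29-fold lower (1.23 to 1.34), and the reporter transcript H2BGFP had 253 CPM in dividing cells and 340 CPM in resting cells. In the cells nearest to MyoFB-IMR the log2 ratios were -0.16 for Pdgfra and -0.22 for H2BGFP, below the 1.5-fold threshold like the pooled ones. Fgf18, the growth factor whose locus drives the Cre, had 46.9 CPM in dividing cells and 35.0 CPM in resting cells, with a log2 ratio of -0.14 in the cells nearest to MyoFB-IMR. Among 56 counted mesenchymal transcription factors 2 were at least 1.5-fold higher and 5 lower, the lower count being near the share over all genes. Near MyoFB-IMR 3 were higher and 5 lower, near MyoFB-Int 7 were higher and 5 lower, and in the tdT-high library 3 were higher and 5 lower. Foxp2, a forkhead repressor of lung development, had 318 CPM in dividing cells and 702 CPM in resting cells, 2.21-fold lower (2.09 to 2.33). It was also lower in the cells nearest to MyoFB-IMR (log2 ratio -0.93), in those nearest to MyoFB-Int (-1.36) and in the tdT-high library (-0.72). Twist1, a basic helix-loop-helix factor of mesenchyme, was higher, with 63.8 CPM in dividing cells and 41.3 CPM in resting cells, and its log2 ratio was 1.03 in the tdT-high library. Tcf21, a factor of lipofibroblasts, had 16.9 CPM in dividing cells and 5.35 CPM in resting cells, but 5.15 CPM in tdT-high dividing cells and 5.94 CPM in tdT-high resting cells.

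Matrix genes passed the threshold in both directions in the pool, and within the states more of them were lower than higher. Of 124 counted, 15 were at least 1.5-fold higher and 12 lower in all dividing cells, with a median log2 ratio of -0.02. Near MyoFB-IMR 5 of 119 were higher and 16 lower (median -0.20), near MyoFB-Int 8 of 126 were higher and 26 lower (median -0.22), and in the tdT-high library 8 of 124 were higher and 15 lower (median -0.12). Over all genes the shares were 8.87% higher and 8.09% lower in the pool, and 11.0% and 10.3% in the tdT-high library. Near MyoFB-IMR they were 8.54% and 7.59%, and near MyoFB-Int 10.4% and 9.49%. The lower counts of the pool and the tdT-high library are near these shares. Those within the states are above them but are not independent of the assignment. Eln, which encodes elastin and lies at chr5:134702593-134747323 on GRCm38, had 2326 CPM in dividing cells and 3239 CPM in resting cells, 1.39-fold lower (1.36 to 1.42). Within each state the difference was larger than in the pool, but Eln met the rule for the genes that assign cells to the states. Its values within the states are therefore not independent of that assignment. The dividing cells nearest to MyoFB-IMR carried 1567 CPM, against 3239 CPM in MyoFB-IMR cells, and those nearest to MyoFB-Int carried 3259 CPM, against 7131 CPM in MyoFB-Int cells. The log2 ratio was thus -1.05 within MyoFB-IMR and -1.13 within MyoFB-Int, and in the tdT-high library Eln had 3945 CPM in dividing cells and 6507 CPM in resting cells. Fibrillar collagens were near the resting level: Col1a1 had 645 CPM in dividing cells and 550 CPM in resting cells, and Col3a1 had 1488 CPM in dividing cells and 1506 CPM in resting cells. The 17 counted collagens had a median of -0.16, with 2 members above 1.5-fold and 2 below it, and within the nearest states they had a median of -0.31 in both. Lama2, the laminin chain of basement membrane, had 282 CPM in dividing cells and 588 CPM in resting cells, 2.09-fold lower (1.97 to 2.21), with log2 ratios of -0.78 near MyoFB-IMR and -1.06 near MyoFB-Int. Adamts17, a secreted metalloprotease linked to fibrillin, had 82.0 CPM in dividing cells and 196 CPM in resting cells, with log2 ratios of -1.33 near MyoFB-IMR and -1.44 near MyoFB-Int.

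Several matrix genes that were higher in the pool, and Igfbp5 of the PDGF and IGF list, depended on which cells were in it. Col12a1, a collagen that decorates fibrils, had 40.8 CPM in dividing cells and 19.2 CPM in resting cells, but its log2 ratio was -0.58 in the cells nearest to MyoFB-IMR. Igfbp5, a binding protein of insulin-like growth factors, had 160 CPM in dividing cells and 85.7 CPM in resting cells, with a log2 ratio of -0.40 in the cells nearest to MyoFB-IMR and -0.74 in those nearest to MyoFB-Int. Dcn (decorin) and Postn (periostin) were 2.13-fold and 1.74-fold higher in the pool, and without the 1 dividing cell nearest to AdvFB their log2 ratios were -0.15 and -0.50. The adventitial marker list moved with these genes: its 15 markers summed to 654 CPM in dividing cells, 569 CPM in resting cells and 19632 CPM in AdvFB cells, with 0 markers at 0 in either group. Of its 6 counted markers 3 were at least 1.5-fold higher in all dividing cells and 1 without that cell. Gpc3, a glypican, was higher in the pool (38.0 CPM in dividing cells and 20.6 CPM in resting cells), in the cells nearest to MyoFB-IMR (log2 ratio 0.61) and in the tdT-high library (0.90).

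Of 113 counted contractile genes 10 were at least 1.5-fold higher and 14 lower in all dividing cells. The actin, myosin and smooth muscle genes among them had 3 of 35 counted members higher and 2 lower in this pool, with a median of 0.12. In the pool this is no more than the shares over all genes. Near MyoFB-IMR 1 of 34 was higher and 6 lower (median -0.04), against 8.54% higher and 7.59% lower over all genes. Near MyoFB-Int 2 of 35 were higher and 4 lower (median 0.06), against 10.4% and 9.49%. In the tdT-high library 3 of 35 were higher and 4 lower (median -0.16), against 11.0% and 10.3%. Acta2, smooth muscle actin, had 1119 CPM in dividing cells and 1008 CPM in resting cells. Within the states its log2 ratio was -0.47 for the cells nearest to MyoFB-IMR and 0.19 for those nearest to MyoFB-Int. Tagln, the actin-binding transgelin, had 917 CPM in dividing cells and 1238 CPM in resting cells, with log2 ratios of -0.99 and -0.48 within the 2 states and -0.70 in the tdT-high library. Myh11, the smooth muscle myosin heavy chain, had 477 CPM in dividing cells and 702 CPM in resting cells, with log2 ratios of -0.70 near MyoFB-IMR and -0.64 near MyoFB-Int. Mustn1, a small nuclear protein of muscle and skeleton, had 208 CPM in dividing cells and 337 CPM in resting cells. The related transgelin Tagln2 went the other way, with 420 CPM in dividing cells and 173 CPM in resting cells, 2.43-fold higher (2.29 to 2.56). Tagln2 was at least 0.98 higher on the log2 scale in each of the 3 dividing labels, in both states and in the tdT-high library.

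Channels and calcium handling genes were lower on balance, with 9 of 25 counted members at least 1.5-fold lower, 0 higher and a median of -0.52. The count depended on the scaling. TMM factors left 6 lower and 0 higher (median -0.45), and DESeq2 factors 5 lower and 1 higher (median -0.44). Totals without cell cycle and technical genes gave 6 of 26 lower and 1 higher (median -0.35). Within the states 5 were lower and 0 higher near MyoFB-IMR, 7 were lower and 2 higher near MyoFB-Int, and in the tdT-high library 5 were lower and 1 higher. Over all genes the lower shares were 8.09% in the pool, 7.59% near MyoFB-IMR, 9.49% near MyoFB-Int and 10.3% in the tdT-high library. Pde5a, the phosphodiesterase that breaks down cyclic GMP, had 1228 CPM in dividing cells and 1948 CPM in resting cells, 1.59-fold lower (1.54 to 1.63). Cacnb2, a subunit of voltage-gated calcium channels, had 2041 CPM in dividing cells and 2952 CPM in resting cells. Trpc6, a cation channel gated by diacylglycerol, had 65.3 CPM in dividing cells and 131 CPM in resting cells. Trpc6 had 37.8 CPM in DivFB-G2M cells, 189 CPM in DivFB-S cells and 48.6 CPM in DivFB-S/G2M cells, so the DivFB-S cells were above the resting level.

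Gene length moved with these differences. Of the 9226 counted genes 99.3% had a length in GENCODE M21, and the longest of 5 equal bins of genes (85.8 to 2960.9 kb) had a median log2 ratio of -0.17 with 15.7% of genes at least 1.5-fold lower and 5.40% higher. The bin with the shortest genes had a median of 0.08 with 5.23% lower and 11.9% higher. In DivFB-G2M cells 23.5% of the longest bin were lower, with a median of -0.23, and in the tdT-high library the longest bin had a median of -0.21. All 9 lower channel genes were among the 17 counted channel genes of the longest bin, and 0 of the 8 shorter ones were lower (median -0.04). Of the 10 lower myofibroblast genes 8 were among the 13 in the longest bin, and 2, Stc1 and Mustn1, among the 12 shorter ones (median -0.23). The 5 lower transcription factors, Foxp2, Sox5, Rora, Zfhx4 and Rarb, were all among the 29 counted factors of the longest bin, and 0 of the 27 shorter ones were lower (median 0.11). The part of gene length in these list values was not tested. Fmo2, a flavin monooxygenase at chr1:162874317-162898726, is 24.41 kb long and was among the lowest ratios, with 896 CPM in dividing cells and 2529 CPM in resting cells, 2.82-fold lower (2.73 to 2.91). Its log2 ratio lay between -1.21 and -1.54 in the 3 labels, the 2 states and the tdT-high library.

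**Figure D4:**
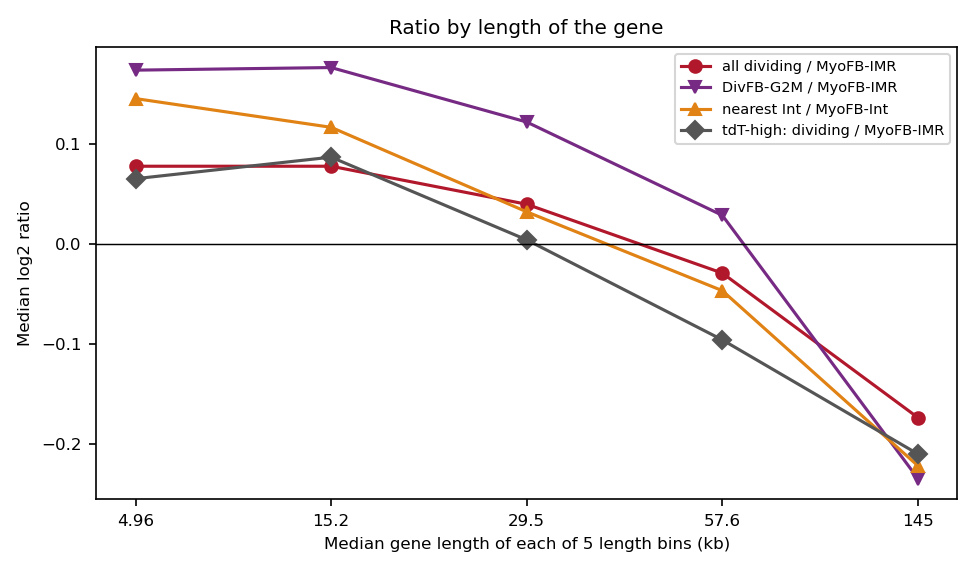
Median log2 ratio (vertical axis) of counted genes outside the cell cycle lists in 5 bins of gene length (horizontal axis, median kb of each bin), for 4 comparisons. All 4 lines are lowest in the longest bin, with a median of -0.17 for all dividing cells and -0.23 for DivFB-G2M cells.

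Of 166 counted signalling genes 18 were at least 1.5-fold higher and 15 lower, which is near the shares over all genes. Near MyoFB-IMR 4 of 165 were higher and 11 lower, near MyoFB-Int 7 of 168 were higher and 14 lower, and in the tdT-high library 6 of 170 were higher and 16 lower. Differences between pathways were not tested. Bmp4, a bone morphogenetic protein ligand, had 165 CPM in dividing cells and 85.5 CPM in resting cells, 1.93-fold higher (1.77 to 2.11), with log2 ratios of 0.84 and 0.54 within the 2 states and 0.72 in the tdT-high library. Id1, an inhibitor of differentiation that BMP signals induce, had 87.5 CPM in dividing cells and 42.0 CPM in resting cells, with 131 CPM in DivFB-S/G2M cells and 32.0 CPM in DivFB-S cells, and with log2 ratios of 0.79 and 0.96 within the 2 states. Of 36 counted TGF-beta and BMP genes 2 were higher and 3, the receptors Bmpr1b, Acvr2a and Eng, lower in the pool, while near MyoFB-IMR 2 of 35 were higher and 0 lower. Bmpr1b had 32.3 CPM in dividing cells and 51.7 CPM in resting cells, with a log2 ratio of -0.17 near MyoFB-IMR. Acvr2a, an activin receptor, had 124 CPM in dividing cells and 205 CPM in resting cells. Eng is also an endothelial marker, and all 3 counted endothelial markers (Eng, Ramp2 and Pecam1) were at least 1.5-fold lower in all dividing cells, against 1 of 3 near MyoFB-IMR. With TMM factors, and with DESeq2 factors, 1 of the 3 was at least 1.5-fold lower in all dividing cells. Of 16 FGF genes and of 11 hedgehog genes 0 passed 1.5-fold in either direction in the pool, and near MyoFB-IMR 1 of 17 FGF genes was higher. Ptch1, the hedgehog receptor and a target of the pathway, had 342 CPM in dividing cells and 356 CPM in resting cells, and Fgfr2 had 304 CPM in dividing cells and 410 CPM in resting cells. Of 30 Wnt genes 0 were higher and 3 lower in the pool, 0 and 2 of 30 near MyoFB-IMR, and 0 and 1 of 29 near MyoFB-Int. The Wnt inhibitor Notum had 23.9 CPM in dividing cells and 40.8 CPM in resting cells, with log2 ratios of -0.37 and -0.24 within the 2 states.

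Axon guidance and angiogenic genes had 6 of 29 counted members lower and 2 higher, 6 of 28 lower and 1 higher near MyoFB-IMR, 5 of 30 lower and 2 higher near MyoFB-Int, and 3 of 28 lower and 1 higher in the tdT-high library. Over all genes 8.09% were lower and 8.87% higher in the pool. The lower shares over all genes were 7.59% near MyoFB-IMR, 9.49% near MyoFB-Int and 10.3% in the tdT-high library. The lower count in the tdT-high library is near that share. Ntn4, a netrin of basement membranes, had 41.2 CPM in dividing cells and 115 CPM in resting cells, with log2 ratios of -1.45 and -1.11 within the 2 states. The semaphorin receptor Plxna2 had 270 CPM in dividing cells and 489 CPM in resting cells, with log2 ratios of -0.49 and -0.53 within them. Vegfb, a ligand of VEGFR1, was higher, with 43.6 CPM in dividing cells and 22.1 CPM in resting cells, and its log2 ratio was 1.07 and 0.78 within the 2 states. Of these members 5 of the 6 lower ones lie in the longest bin of genes.

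Immediate early genes, which respond to growth factors and to tissue dissociation, were higher in the pool and seldom within the states. Of 23 counted, 12 were at least 1.5-fold higher and 0 lower over all dividing cells, with a median of 0.62. At least 1.5-fold higher were 13 of 23 in DivFB-G2M cells, 1 of 22 in DivFB-S cells and 12 of 22 in DivFB-S/G2M cells. Near MyoFB-IMR 0 were higher and 1 lower (median 0.03), near MyoFB-Int 2 were higher and 0 lower (median 0.09), and in the tdT-high library 0 were higher and 3 lower (median -0.23). Fos had 505 CPM in dividing cells and 266 CPM in resting cells. The dividing cells nearest to MyoFB-Int had 849 CPM of Fos and MyoFB-Int cells 700 CPM, while the dividing cells nearest to MyoFB-IMR had 289 CPM and MyoFB-IMR cells 266 CPM. Fos met the rule for the genes that assign cells to the states. A smaller difference within the states is therefore partly built into that assignment and is given as a description. Atf3, a stress-induced repressor, had 42.7 CPM in dividing cells and 11.3 CPM in resting cells, but 14.6 CPM in tdT-high dividing cells and 22.1 CPM in tdT-high resting cells.

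**Figure D5:**
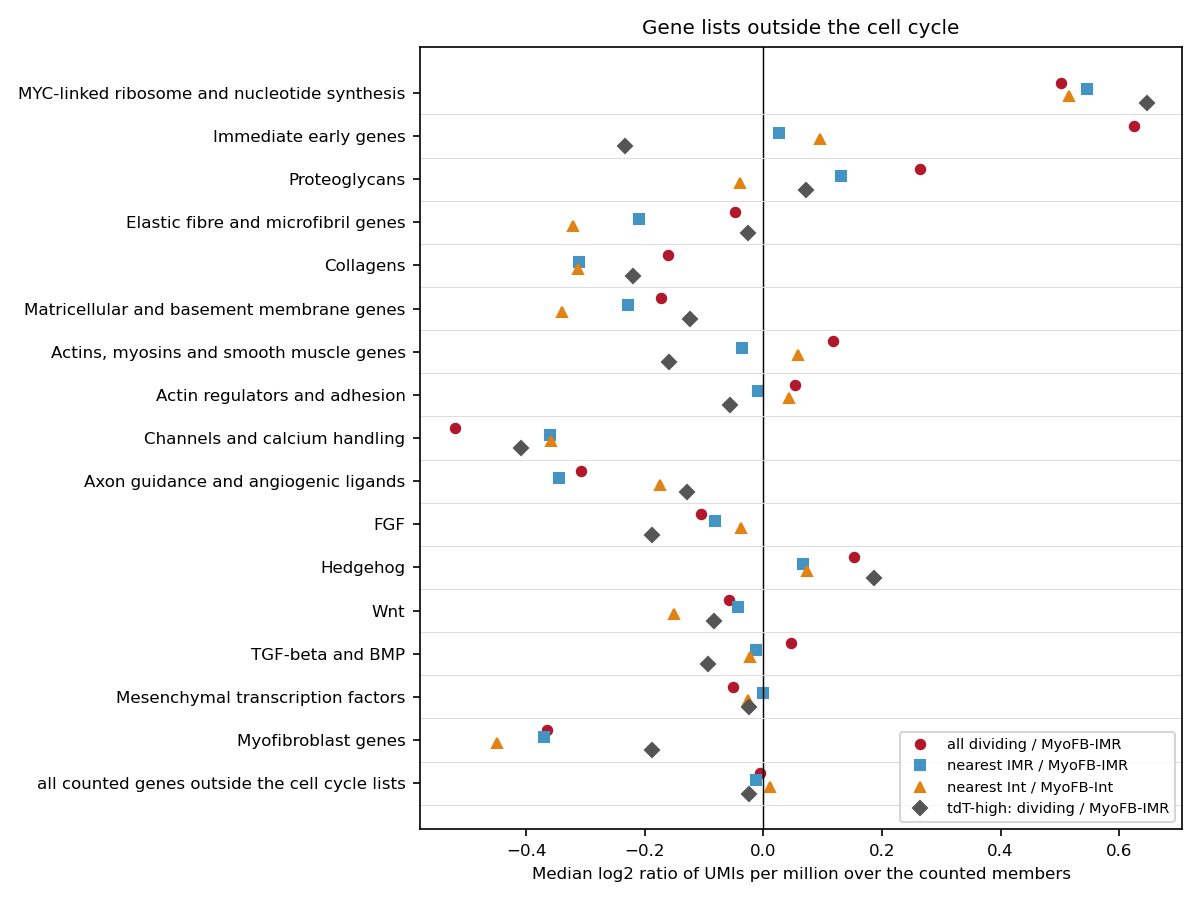
Median log2 ratio (horizontal axis) of the counted members of 16 gene lists and of all counted genes, for all dividing cells, for the cells nearest to MyoFB-IMR or MyoFB-Int over that state, and for the tdT-high library. Immediate early genes lie at 0.62 in the pool but between -0.23 and 0.09 in the other 3 comparisons, while channels and myofibroblast genes lie below 0 in all 4. The nearest states were assigned with the same counts, so their values are not independent of that assignment.

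In the GFP-high tdT-high library, whose 42 dividing cells summed to 1164898 UMIs and 467 resting cells to 10948878, the contrast had the same sign for 91.7% of the 818 higher genes (750) and for 93.2% of the 746 lower genes (695). At least 1.5-fold in the same direction were 561 of the higher and 367 of the lower genes, and 16 and 4 were at least 1.5-fold in the opposite direction. The labels of both libraries come from the same annotation, so these shares are not independent support. Markers of other cell types differed in how far they were present. The 14 epithelial markers summed to 14.8 CPM in dividing cells and 14.5 CPM in resting cells, with 7 at 0 in dividing cells and 4 in resting cells. The 13 immune markers summed to 31.9 CPM in dividing cells and 44.8 CPM in resting cells, and the 12 endothelial markers to 354 CPM in dividing cells and 578 CPM in resting cells, of which Eng took 281 CPM in dividing cells and 444 CPM in resting cells. Ramp2 had 41.7 CPM in dividing cells and 93.1 CPM in resting cells, and Pecam1 had 19.1 CPM in dividing cells and 30.1 CPM in resting cells. The 12 pericyte markers summed to 368 CPM in dividing cells and 561 CPM in resting cells, with 0 at 0 in either group. Of the 7 counted pericyte markers 3 (Pdgfrb, Trpc6 and Abcc9) were at least 1.5-fold lower in dividing cells and 1 (Postn) higher, with a median of -0.56, and near MyoFB-IMR 3 of 6 were lower (median -0.59). The part of other cell types in these ratios was not tested further.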

How the data were processed

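Per the labels' protocols, sorted live lung cells went into 10x Genomics 3' v3.1 libraries. The submitters' processing notes name Cell Ranger 7.0.0 and the build mm10. The authors deposited 1 matrix of raw UMI counts for 31730 genes and 6142 cells, and a table that gives each cell's gate, cell type, counts of UMIs and genes and percent of mitochondrial UMIs. How cells were filtered, how types were called and whether doublets or intronic reads were removed are unknown here. No doublet caller was run, and an alternative left out the 5% of cells with the most UMIs in each group.

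The UMIs of a group's cells were added up and scaled to 1000000 UMIs (CPM). Ratios are of CPM, and log2 ratios are of CPM plus a pseudocount of 1. A gene was counted with a mean of at least 10 CPM over the 2 groups and called higher or lower from 1.5-fold. Intervals at 95% (exact Poisson for levels, exact conditional binomial for ratios, Clopper-Pearson for shares) cover counting error only, since each gate is 1 library and cells are not replicates. So no p-value was computed. A count of 0 was read as up to 3 counts, which is 0.651 CPM in dividing cells and 0.147 CPM in resting cells.

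Each dividing cell was given the resting type of highest multinomial log likelihood over genes outside the cell cycle lists with at least 50 CPM in 1 type and at least 2-fold between types. Named genes were a fixed set of reporters, markers and cell cycle genes, the 12 highest and 12 lowest ratios outside the cell cycle lists among genes that reached 50 CPM and 10% of cells in the higher group, the 6 highest of the S phase and mitotic lists, and of each other list 2 by level, 2 highest and 2 lowest. A gene that this rule names is not reported here. The groups, the 37 lists and the rules were chosen with earlier results of these data known. Current histone symbols were added to the histone list after the data were seen. Coordinates and lengths are from GENCODE M21 on GRCm38, the assembly that mm10 names. Promoters are from RefSeq, GRCm38.p6. Alternatives were TMM factors (edgeR 4.0.16), DESeq2 1.42.0 size factors, other totals, pseudocounts, minima, reference cells and depth matching. Ratios and intervals were tested on simulated data. Python 3.11.15, scipy 1.17.1 and R 4.3.3 were used.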

Additional observations from a re-analysis of the deposited data

Results flagged for a closer look

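Col14a1, a fibril-associated collagen and adventitial fibroblast marker, had opposite signs in the 2 libraries. Its log2 ratio of dividing over resting cells was 0.94 in the tdT-negative library with high GFP, with 31.0 CPM in dividing cells and 15.7 CPM in resting cells. In the GFP-high tdT-high library the ratio was -0.74, with 16.3 CPM in dividing cells and 27.9 CPM in resting cells. Each library is 1 sample, and the difference was not tested. In the tdT-negative library the log2 ratio was -0.30 over the dividing cells nearest to MyoFB-IMR.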

How the results depend on the processing

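Of the 113 reported named genes past 1.5-fold, all 113 kept their direction under TMM factors, DESeq2 factors, totals without cell cycle and technical genes, the mean of the cells' CPM, a pseudocount of 5 CPM and removal of the 5% of cells with the most UMIs. With resting cells matched on UMIs 112 did, without the cell nearest to AdvFB 111, with resting types weighted to the nearest-type shares 104, with the cells nearest to MyoFB-IMR 103 and with all MyoFB cells as resting cells 98. Fewer stayed past 1.5-fold in the same direction. TMM factors left 106, DESeq2 factors 104, the other totals 109, the mean of the cells' CPM 107 and the larger pseudocount 106. Removal of the deepest cells left 110, removal of the cell nearest to AdvFB 107 and depth matching 101. The weighted resting types left 78, the cells nearest to MyoFB-IMR 78 and all MyoFB cells 71. The counts of all dividing over resting cells were, for genes outside the cell cycle lists, 818 higher and 746 lower, for matrix 15 and 12, contractile 10 and 14, signalling 18 and 15, and identity 4 and 15. TMM factors left 9 contractile genes lower. DESeq2 factors left 8 contractile and 9 signalling genes lower. A pseudocount of 5 CPM left 2 identity genes higher. A minimum of 50 CPM gave 273 higher and 228 lower genes, 3 and 7 for matrix, and 6 contractile, 11 signalling and 1 identity genes higher. A minimum of 1 CPM gave 1437 higher and 2230 lower genes, 29 and 23 for matrix, and 11 identity genes higher. Against all MyoFB cells 7 matrix genes were higher and 27 lower, with 3 contractile and 6 signalling genes higher. Over the cells nearest to MyoFB-IMR 5 matrix, 2 contractile and 4 signalling genes were higher. Against weighted resting types 5 matrix genes were higher and 19 lower, 3 contractile genes were higher, and 7 signalling genes were higher and 7 lower. Depth matching left 6 contractile and 9 matrix genes higher, and removal of the cell nearest to AdvFB, an alternative chosen after seeing the data, left 9 matrix genes higher.

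Log2 ratios that turned from higher to lower were, against all MyoFB cells, TDT -0.10, Gadd45g -0.17, Col14a1 -0.29, Col12a1 -1.34, Ltbp1 -0.46, Postn -0.12, Cav1 -0.028, Myocd -0.13, Igfbp5 -1.10, Pappa2 -0.96, Slit3 -0.0561, Fos -0.0461, Aspn -4.30, Cdh4 -1.42 and Actg2 -0.19. Over the cells nearest to MyoFB-IMR they were Col14a1 -0.30, Col12a1 -0.58, Fbln5 -0.11, Dcn -0.43, Postn -1.17, Igfbp5 -0.40, Slit3 -0.62, Cdh4 -0.97, Dpt -0.26 and Actg2 -0.29. Against weighted resting types they were Col14a1 -0.15, Col12a1 -0.56, Dcn -1.22, Postn -0.0424, Igfbp5 -0.53, Pappa2 -0.35, Slit3 -0.57, Aspn -2.98 and Cdh4 -0.59. After depth matching it was Slit3 -0.37, and without the cell nearest to AdvFB they were Dcn -0.15 and Postn -0.50. The cause was not tested. A fit with the 2 GFP-high libraries as pairs was not run, because the gates are different sorted populations and the groups are labels of the same cells whose genes would be tested. With 28 DivFB-S cells and 42 tdT-high dividing cells, single genes there rest on few cells, and a replicate spread cannot be had.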
